A study of Mus musculus with 13 samples.

Results

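Immunoglobulin variable segments were followed across 13 mouse lung libraries, 8 from lungs given bleomycin and 5 from lungs given saline. They were taken as every row of the count table whose symbol starts with Ighv (heavy chain), Igkv (kappa light chain) or Iglv (lambda light chain) and whose counts summed to more than 10 over the 13 libraries. Of 54513 rows in the table, 346 carry such a symbol and 182 passed the minimum: 90 of 183 heavy, 89 of 160 kappa and all 3 lambda segments. The other rows had no count in any library (103 rows) or too few (61 rows). The segments just inside the minimum had 12 counts (Ighv1-67, Ighv5-2, Igkv2-137 and Igkv11-125), and those just outside had 10 (Ighv3-2, Ighv1-43 and Ighv1-62-3). The GENCODE M21 annotation (build GRCm38) lists 178 of the 182 as functional gene segments and 4 as pseudogenes, which held 0.107% of the segment counts, and it places the heavy segments on chromosome 12, the kappa segments on chromosome 6 and the lambda segments on chromosome 16.

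Every library came from a C57Bl/6 male aged 7 to 8 weeks, sampled on day 21, and was made from 8 ng of total RNA out of one 10 µm section of formalin-fixed, paraffin-embedded lung. Bleomycin is a chemotherapy drug that breaks DNA and scars the mouse lung. By their labels, bleomycin replicates 1 to 4 belong to batch 2. Bleomycin replicates 5 to 8 and all 5 saline libraries belong to batch 1. Whether every library is from its own animal is not stated, and the p-values therefore reflect the scatter among these libraries alone.

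Each B cell builds its antibody from one heavy and one light chain, and the front of each chain is encoded by a V segment that V(D)J recombination joins to a short J segment (with a D segment between them in heavy chains). A cell keeps its choice, so all daughters of one B cell carry the same pair of V segments, and plasma cells hold far more antibody mRNA than resting B cells. In bulk lung RNA the segment counts therefore mix how many B-lineage cells use a segment with how much antibody mRNA each one holds, and the 2 cannot be told apart in these data.

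The germline coding sequences of the segments that the results turn on are given from the GENCODE M21 transcripts, 5′ to 3′, in lower case, as the last 290 bases of each. Capitals run from the codon of the conserved second cysteine to the 3′ end, where the germline part of the third hypervariable loop (CDR3) begins. The first 4 form 2 pairs of heavy and light chain partners that are known in mice from B-1 cells, a B cell lineage of the body cavities that makes IgM to phosphatidylcholine. Ighv11-2 is known to pair with Igkv14-126, and Ighv12-3 with Igkv4-91.
Ighv11-2: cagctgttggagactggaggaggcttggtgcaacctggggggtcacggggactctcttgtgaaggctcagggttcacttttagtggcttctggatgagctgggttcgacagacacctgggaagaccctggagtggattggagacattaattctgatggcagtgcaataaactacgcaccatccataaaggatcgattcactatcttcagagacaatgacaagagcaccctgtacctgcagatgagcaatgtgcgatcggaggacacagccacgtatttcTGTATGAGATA
Igkv14-126: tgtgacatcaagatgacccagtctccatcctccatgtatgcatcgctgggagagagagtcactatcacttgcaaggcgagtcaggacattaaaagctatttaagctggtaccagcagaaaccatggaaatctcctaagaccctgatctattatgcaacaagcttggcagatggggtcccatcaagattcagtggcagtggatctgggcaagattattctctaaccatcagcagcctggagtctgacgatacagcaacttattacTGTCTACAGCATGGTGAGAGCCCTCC
Ighv12-3: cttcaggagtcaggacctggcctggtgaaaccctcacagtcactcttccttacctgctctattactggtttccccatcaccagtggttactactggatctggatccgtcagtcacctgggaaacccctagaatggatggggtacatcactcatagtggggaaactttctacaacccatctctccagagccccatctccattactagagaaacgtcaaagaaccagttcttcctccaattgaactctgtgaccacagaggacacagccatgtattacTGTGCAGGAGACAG
Igkv4-91: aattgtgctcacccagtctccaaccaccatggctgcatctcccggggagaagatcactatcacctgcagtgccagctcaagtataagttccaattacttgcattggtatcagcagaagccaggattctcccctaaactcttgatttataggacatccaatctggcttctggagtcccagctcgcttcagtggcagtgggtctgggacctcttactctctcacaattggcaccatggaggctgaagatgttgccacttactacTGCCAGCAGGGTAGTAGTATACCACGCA
Igkv1-110 and Igkv1-117 are shown because the same segment, Igkv1-110, led in libraries of both groups while its near copy led in none; they differ at 10 of 359 bases.
Igkv1-110: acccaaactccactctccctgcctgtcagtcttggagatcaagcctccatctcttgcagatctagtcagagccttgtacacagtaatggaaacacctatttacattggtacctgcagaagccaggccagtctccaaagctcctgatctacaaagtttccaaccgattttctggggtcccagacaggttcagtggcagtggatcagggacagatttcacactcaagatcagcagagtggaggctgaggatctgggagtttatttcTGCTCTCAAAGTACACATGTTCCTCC
Igkv1-117: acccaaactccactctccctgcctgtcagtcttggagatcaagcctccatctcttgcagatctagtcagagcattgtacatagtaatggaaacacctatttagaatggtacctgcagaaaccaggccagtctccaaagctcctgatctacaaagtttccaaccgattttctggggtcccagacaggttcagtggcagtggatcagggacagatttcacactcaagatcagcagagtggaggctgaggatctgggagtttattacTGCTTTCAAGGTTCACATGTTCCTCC
Iglv1 was among the 10 leading segments of 7 of the 8 bleomycin libraries, and Igkv16-104 led the library with conflicting labels.
Iglv1: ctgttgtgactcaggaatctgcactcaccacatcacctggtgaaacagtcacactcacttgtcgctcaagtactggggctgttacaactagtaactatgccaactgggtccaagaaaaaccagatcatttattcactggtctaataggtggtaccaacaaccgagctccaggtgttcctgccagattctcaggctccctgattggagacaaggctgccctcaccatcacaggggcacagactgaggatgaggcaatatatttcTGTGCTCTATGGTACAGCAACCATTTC
Igkv16-104: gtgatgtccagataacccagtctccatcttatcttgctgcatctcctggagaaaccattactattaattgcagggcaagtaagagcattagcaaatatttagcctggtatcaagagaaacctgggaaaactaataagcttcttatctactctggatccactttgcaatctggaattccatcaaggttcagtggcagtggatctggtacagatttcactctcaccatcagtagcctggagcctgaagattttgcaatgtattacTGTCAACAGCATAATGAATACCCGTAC

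Total counts ranged from 6337147 to 28885129 per library, with 6337147 to 12982422 in batch 2 and 21727502 to 28885129 in batch 1 of bleomycin, against 9527580 to 26043735 with saline. Bleomycin replicate 8 has conflicting labels: its title says control, while its treatment label and library name say bleomycin. It was kept with bleomycin, and its Fn1, Spp1 and Col1a1 levels (fibronectin, osteopontin and collagen I) were 8202, 911 and 3982 CPM (counts scaled to a common library size), against 369 to 450, 20.5 to 38.1 and 215 to 324 CPM in saline libraries. The summed level, the counts of calls and the segment folds that rest on it are also given without it. Lung epithelial markers were present throughout: Sftpc, Scgb1a1 and Ager together reached 4092 to 10018 CPM in batch 2 and 3225 to 5082 CPM in batch 1 of bleomycin, against 9171 to 16063 CPM with saline.

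Antibody V segments were more abundant in every bleomycin library than in any saline library. Their summed level was 603, 298.5, 465 and 768 CPM in batch 2 bleomycin (replicates 1 to 4) and 209.7, 164, 566 and 1022 CPM in batch 1 bleomycin (replicates 5 to 8). Saline replicates 1 to 5 had 43.9, 23.3, 54.8, 13.8 and 40.5 CPM. The groups did not overlap, and the lowest bleomycin library was 2.99 times the highest saline library. The mean was 512 ± 292 CPM over the 8 bleomycin libraries, against 35.3 ± 16.5 CPM over the 5 saline libraries (SD), a ratio of 14.5. Within batch 1 the ratio of means was 13.9, and it was 8.88 without bleomycin replicate 8. Heavy, kappa and lambda segments each stood higher in bleomycin without overlap, at 56.6 to 421, 102 to 572 and 5.45 to 58.8 CPM in bleomycin, against 4.34 to 17.4, 8.93 to 36.2 and 0.503 to 4.06 CPM in saline libraries. No p is given for these sums, since the segments were chosen with earlier results of the same data known.

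**Figure D1:**
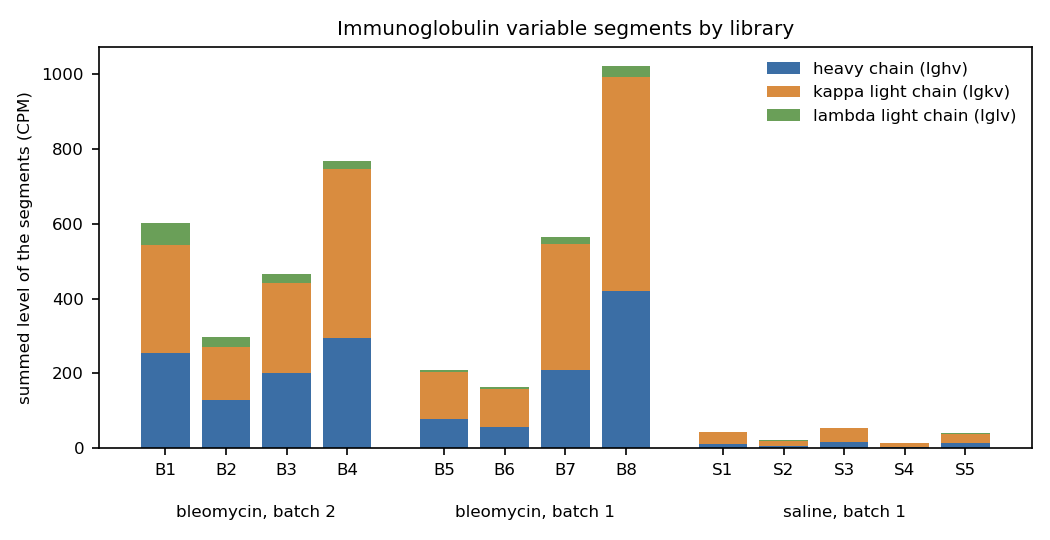
Summed level of the 182 segments in each library in CPM (vertical axis from 0), split into heavy, kappa and lambda segments; B1 to B8 are bleomycin replicates and S1 to S5 saline replicates. The bleomycin libraries lie between 164 and 1022 CPM, all above the saline libraries at 13.8 to 54.8 CPM, and bleomycin replicates 5 and 6 are the lowest of the bleomycin libraries.

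More different segments were seen after bleomycin. With 1 count or more taken as seen, batch 2 bleomycin libraries held 126, 134, 147 and 149 of the 182 segments and batch 1 bleomycin libraries 144, 123, 166 and 172. Saline libraries held 85, 45, 98, 37 and 61. The groups did not overlap, but a library with more segment counts shows more segments, and segment counts ran from 2926 to 25148 in bleomycin and from 201 to 1502 in saline libraries. After every library was thinned to 201 segment counts, the expected number seen was 58.4, 70.3, 70.4 and 74.7 in batch 2 bleomycin and 72.7, 65.5, 75.0 and 69.8 in batch 1 bleomycin, against 54.7, 45.0, 57.4, 36.6 and 47.9 in saline libraries. At 201 counts each the groups were still apart, by a narrow margin: bleomycin replicate 1 had 58.4 and saline replicate 3 had 57.4. Even numbers made up 78.4 to 86.1% of the values of genes with 1 to 10 counts and 52.3 to 91.8% of the values of the segments seen (at any count), lowest in bleomycin replicates 8 (52.3%) and 7 (58.4%). The cause was not tested, and counts may not be separate molecules. Thinning treats each count as separate, so 201 counts may not match the libraries in molecules. The narrow gap after thinning is therefore not secure.

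**Figure D2:**
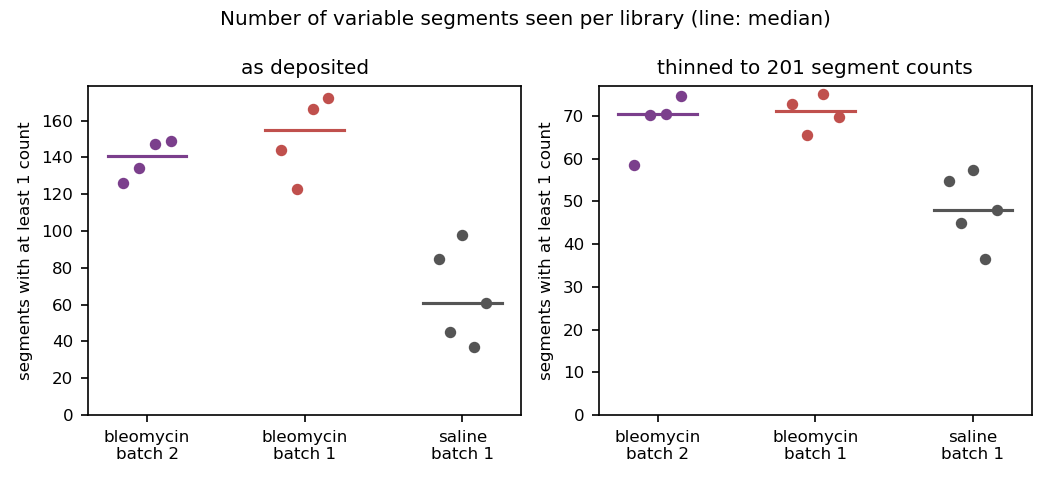
Number of segments with at least 1 count per library (vertical axes from 0), as deposited on the left and thinned to 201 segment counts on the right, with a line at each group's median. Thinning brings the groups close, to 58.4 to 75.0 in bleomycin and 36.6 to 57.4 in saline libraries, without overlap.

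Of the 182 segments, 72 were seen in all 8 bleomycin libraries and 9 in all 13 libraries: Igkv10-96, Igkv1-110, Igkv1-117, Igkv14-126, Igkv6-23, Igkv8-30, Iglv1, Iglv2 and Iglv3. Another 41 were seen in no saline library. In raw counts 60 segments had more than 50% of their total in 1 library, bleomycin replicate 8 for 26 of them. On the CPM scale, added after the data were seen, it was 62 segments (replicate 8 for 17), and 75 without replicate 8. Among the 108 segments that averaged at least 1 CPM in bleomycin, the coefficient of variation over the 8 bleomycin libraries had a median of 113% and ran from 45.7% (Igkv8-28) to 279% (Ighv1-49, both named after their values were seen as the ends of the range), while that of the summed level was 57.0%. Without bleomycin replicate 8 the median was 110% over 104 segments.

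Different segments led in different bleomycin libraries. In batch 2 the leader was Igkv4-91 in replicate 1 (12.9% of segment counts, 95% Wilson interval 11.8 to 14.0), Igkv1-110 in replicate 2 (7.04%, 6.17 to 8.02), Igkv6-23 in replicate 3 (5.41%, 4.85 to 6.04) and Igkv3-2 in replicate 4 (6.00%, 5.39 to 6.68). In batch 1 it was Igkv17-121 in replicate 5 (7.37%, 6.68 to 8.12), Igkv4-91 in replicate 6 (11.7%, 10.8 to 12.7), Igkv3-2 in replicate 7 (5.70%, 5.33 to 6.09) and Igkv16-104 in replicate 8 (7.82%, 7.50 to 8.16). So 6 segments, all kappa, led the 8 bleomycin libraries, and Igkv4-91 and Igkv3-2 each led a library in both batches. Saline libraries were led by Igkv8-21 (18.9%), Iglv2 (9.95%), Igkv12-41 (23.4%) and, in replicates 4 and 5, by Igkv1-110 (25.6% and 26.5%). These intervals and all others here cover counting error only. They and the bounds set from 3 counts take each count as a separate molecule, and may be too tight where it is not.

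The 5 leading segments of a library took 43.8%, 23.6%, 24.9% and 21.9% of its segment counts in batch 2 bleomycin and 27.1%, 31.1%, 21.9% and 27.3% in batch 1 bleomycin, against 43.9%, 35.3%, 44.1%, 56.2% and 48.8% in saline libraries. Within batch 1 every bleomycin library lay below every saline library, and bleomycin replicate 1 of batch 2 lay among the saline values. The number of equally used segments that would give the same evenness (the inverse of the summed squared shares) was 19.5, 42.6, 42.8 and 49.6 in batch 2 bleomycin and 39.9, 30.0, 48.9 and 39.0 in batch 1 bleomycin, against 15.8, 24.4, 13.8, 10.0 and 10.6 in saline libraries. Saline replicates 2 and 4 had only 201 and 219 segment counts. Their leaders rested on 20 counts (Iglv2) and 56 counts (Igkv1-110). The 25.6% of Igkv1-110 in replicate 4 has an interval of 20.2 to 31.7%.

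The 8 top-5 lists of the bleomycin libraries held 29 segments, of which 19 appeared in 1 list, 9 in 2 lists and Igkv10-96 in 3. None of the 5 leaders of bleomycin replicate 8 (Igkv16-104, Igkv1-117, Ighv1-82, Ighv3-8 and Igkv6-15) was in another bleomycin list, and without it 24 segments filled 7 lists, 14 of them in 1 list. Among the 28 pairs of bleomycin libraries, 19 pairs shared no top-5 segment and 3 shared 2: replicates 1 and 6 (Igkv4-91 and Ighv11-2), 2 and 3 (Igkv1-110 and Iglv1), and 4 and 7 (Igkv3-2 and Igkv10-96). The top-10 lists held 47 segments, and Iglv1 was in 7 of the 8, Ighv6-3 and Igkv10-96 in 5 and Igkv1-110 in 4. The summed overlap of usage (the smaller of the 2 shares, added over segments) had a median of 45.9% between bleomycin libraries (28 pairs, 35.9 to 59.0%), 33.3% between a bleomycin and a saline library (40 pairs, 19.9 to 41.1%) and 28.6% between saline libraries (10 pairs, 17.3 to 46.7%). Pairs share libraries and saline libraries hold few counts, so these overlaps are a description with no test. Without replicate 8 the 21 bleomycin pairs ran from 35.9 to 59.0% with a median of 46.7%.

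**Figure D3:**
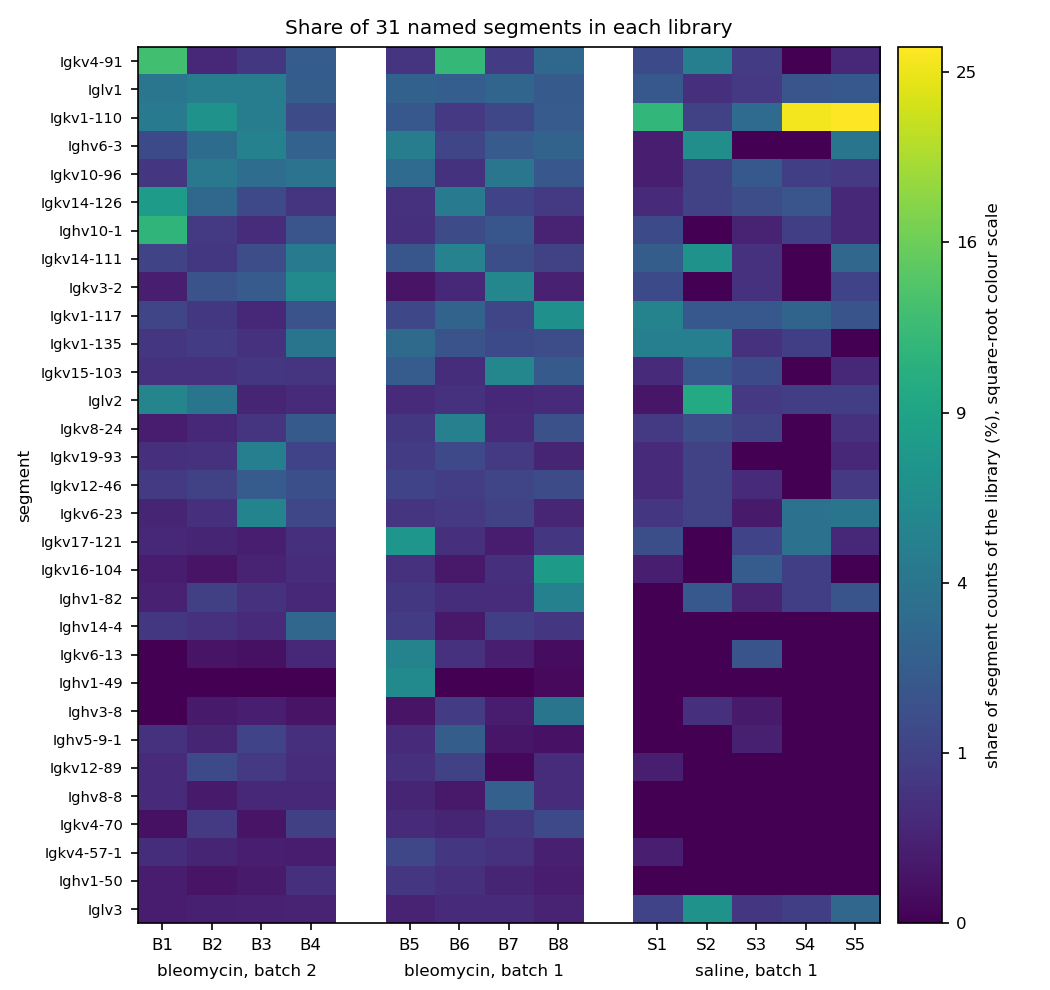
Share of each library's segment counts (%, square-root colour scale) taken by 31 named segments, sorted by mean share in bleomycin; columns are bleomycin replicates B1 to B8 in 2 batches and saline replicates S1 to S5. Bright cells mostly stand alone in their row among the bleomycin columns, such as Ighv10-1 in B1 (11.3%), Igkv17-121 in B5 (7.37%) and Igkv16-104 in B8 (7.82%), and the Iglv1 row is even, at 2.14 to 4.78% across B1 to B8.

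The 4 segments of the known B-1 cell pairs took a larger share of the segment counts in bleomycin replicates 1 and 6 than in any other library. They were examined as a set after their values were seen, and Ighv11-2 and Ighv12-3 are named for that reason. Together they made up 30.8% of segment counts in bleomycin replicate 1 (95% Wilson interval 29.4 to 32.4) and 25.4% in bleomycin replicate 6 (24.1 to 26.6). In the other bleomycin libraries the share was 6.39%, 2.63% and 4.02% (replicates 2 to 4) and 2.04%, 2.50% and 5.24% (replicates 5, 7 and 8), against 2.72%, 5.97%, 4.13%, 1.83% and 1.09% in saline libraries. The 2 high libraries belong to different batches, and the shares of the remaining bleomycin libraries overlapped the saline ones. On the level scale the set was at 186, 19.1, 12.3 and 30.9 CPM in batch 2 bleomycin and 4.28, 41.6, 14.1 and 53.6 CPM in batch 1 bleomycin, against 1.19, 1.39, 2.26, 0.251 and 0.441 CPM in saline libraries. By level every bleomycin library was above every saline library, and replicate 6, whose summed segment level (164 CPM) was the lowest of the bleomycin libraries, lay below replicate 8.

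All 4 segments contributed to these shares. Igkv4-91 held 12.9% and 11.7% in bleomycin replicates 1 and 6, and 0.342 to 2.93% in the other 6 bleomycin libraries. Its partner Ighv12-3 held 3.80% and 4.70%, against 0.0393 to 0.903% in those others, and was the leading heavy segment of replicate 6. Igkv14-126 held 7.94% and 4.41%, against 0.550 to 3.01%, and its partner Ighv11-2 held 6.23% and 4.51%, against 0.473 to 2.77%. In both libraries the shares of heavy and light partners were high together. By level, Igkv14-126 in replicate 6 (7.22 CPM) was not above replicates 2 and 8 (8.98 and 7.96 CPM). Igkv4-91 and Ighv12-3 in replicate 6 also lay below replicate 8 by level, and Ighv11-2 lay below replicates 2 and 4. The share of IgM (Ighm) in heavy constant counts was higher in replicates 1 and 6 (78.8% and 65.1%) than in the other bleomycin libraries (35.5 to 63.8%). Saline libraries had 46.1 to 70.1%. Whether cells of 1 lineage carried both chains was not tested, since bulk counts do not pair them.

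**Figure D4:**
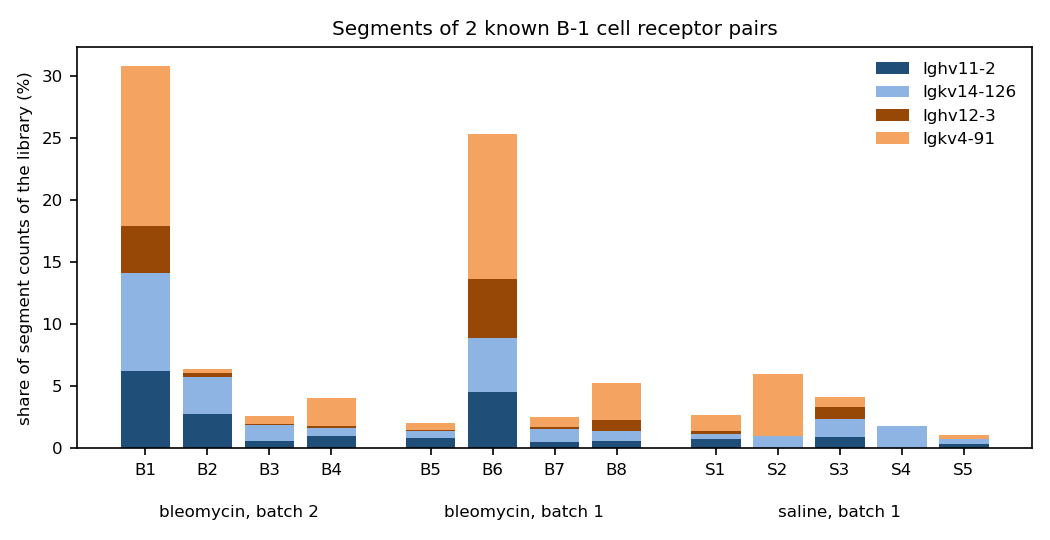
Share of segment counts (%, vertical axis from 0) of Ighv11-2 and Igkv14-126 (blue) and of Ighv12-3 and Igkv4-91 (brown), stacked by library; B1 to B8 are bleomycin and S1 to S5 saline replicates. B1 and B6 reach 30.8% and 25.4%, and each other library lies at 6.39% or below.

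Bleomycin replicate 8 had a set of its own. Igkv16-104 was at 79.9 CPM there and at 0.204 to 3.22 CPM in the other 7 bleomycin libraries, against 0.0852, 0, 1.24, 0.126 and 0 CPM in saline libraries. Ighv1-82 was at 51.9 CPM in replicate 8 and at 0.764 to 2.86 CPM in the other bleomycin libraries, and Ighv3-8 at 41.2 CPM and at 0 to 1.39 CPM. These 2 heavy segments and Igkv16-104 had 85.2%, 91.8% and 91.3% of all their counts in this library. It also held most of the mRNA of Ighg1, the constant region of IgG1: 247 CPM in replicate 8, 2.32 to 16.0 CPM in the other bleomycin libraries and 0 to 3.09 CPM in saline libraries. Igkv1-117 was at 68.7 CPM in replicate 8, at 1.52 to 13.5 CPM in the other bleomycin libraries and at 0.377 to 2.34 CPM in saline libraries.

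Other segments also stood out in 1 library, Ighv1-49 as strongly and Ighv10-1 less so. Ighv1-49 had 304 of its 308 counts in bleomycin replicate 5 (12.5 CPM, 5.97% of segment counts, interval 5.35 to 6.66), 4 in replicate 8 and none elsewhere. In the 6 bleomycin libraries where it had no count, a count of 0 allows a share of up to 0.0209 to 0.103% (3 counts of the total), and in the saline libraries of up to 0.200 to 1.49%. Ighv10-1 was at 68.3 CPM in bleomycin replicate 1, at 1.07 to 14.1 CPM in the other bleomycin libraries and at 0 to 0.597 CPM in saline libraries. Of all Ighv10-1 counts, 40.9% were in bleomycin replicate 1. The leading heavy segment differed in all 8 bleomycin libraries: Ighv10-1, Ighv5-17, Ighv6-3 and Ighv1-26 in replicates 1 to 4, and Ighv1-49, Ighv12-3, Ighv1-53 and Ighv1-82 in replicates 5 to 8.

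Segments that resemble each other can take each other's reads, which bears on such leaders. Over the 182 segments a median of 77.3% of 50-base words were found in no other annotated V segment, 24 segments had fewer than 50% such words (10.9% of segment counts), and 46 had a neighbour more than 95% identical. Igkv1-110 and Igkv1-117 are 97.2% identical, with 49.1% and 50.1% unique words, so their counts are uncertain relative to each other. Igkv16-104 and the B-1 pair segments Ighv12-3 and Igkv14-126 had 100% unique words, Igkv4-91 had 94.8% and Ighv11-2 had 61.4%.

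Iglv1, the lambda segment with the most counts over the 13 libraries together, was high in all bleomycin libraries. It was at 24.7, 14.2, 22.2 and 17.9 CPM in batch 2 bleomycin and at 5.36, 3.92, 15.9 and 21.9 CPM in batch 1 bleomycin, against 0.895, 0.116, 0.401, 0.251 and 0.809 CPM in saline libraries. Every bleomycin library was above every saline library (fitted log2 difference 4.47, SE 0.58, adjusted p = 0.000127 by edgeR's quasi-likelihood test, 3.95 to 4.81 with any library left out). Iglv2 was high in 2 bleomycin libraries of batch 2, at 33.0 and 11.8 CPM in replicates 1 and 2, and was at 0.783 to 4.18 CPM in the other 6, against 0.0426 to 2.32 CPM in saline libraries. Its groups overlapped (log2 1.86, SE 1.13, adjusted p = 0.241). Iglv3 was at 0.536 to 2.56 CPM in bleomycin and 0.126 to 1.62 CPM in saline libraries (log2 1.07, SE 0.67, adjusted p = 0.246). Lambda made up 17.0%, 15.7%, 9.32% and 4.82% of light chain counts in batch 2 bleomycin, 5.12%, 5.08%, 5.66% and 4.76% in batch 1 bleomycin, and 4.35%, 23.0%, 3.12%, 5.33% and 9.22% in saline libraries, so these shares overlapped.

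Kappa counts exceeded heavy counts in all 13 libraries. The coding lengths of the segments lie close together (338 to 394 bases), so counts were compared without length scaling. Heavy counts per kappa count were 0.889, 0.905, 0.841 and 0.652 in batch 2 bleomycin and 0.643, 0.556, 0.624 and 0.736 in batch 1 bleomycin, against 0.375, 0.419, 0.480, 0.486 and 0.648 in saline libraries. The mean was 0.731 ± 0.133 in bleomycin (n = 8), against 0.481 ± 0.104 in saline libraries (SD, n = 5). Saline replicate 5 overlapped the bleomycin values, and within batch 1 the bleomycin mean was 0.640 ± 0.0743 (n = 4). Without the leading heavy and kappa segment of each library the medians were 0.706 in bleomycin and 0.523 in saline libraries, with ranges of 0.592 to 0.974 and 0.350 to 0.870.

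Heavy and kappa constant regions were also higher in bleomycin. Heavy V counts per heavy constant count were 0.212 to 0.309 in bleomycin and 0.180 to 0.389 in saline libraries. Kappa V counts per Igkc count were 0.588 to 0.833 in bleomycin (median 0.657) and 0.760 to 1.30 in saline libraries (median 1.11). All bleomycin libraries but replicate 6 (0.833) lay below every saline library, so kappa segments stood lower relative to Igkc there. The J segments that recombine next to the V segments were scarce. Pooled raw counts were 902 heavy and 1252 kappa J counts in the 8 bleomycin libraries, against 74 and 81 in the 5 saline libraries. These sums were not scaled for depth, split by library or taken without bleomycin replicate 8. How many libraries share the direction is therefore not shown.

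Of the 182 segments, 108 had enough counts to be tested gene by gene, and the 74 others (12 to 308 counts each) held 6.96% of the segment counts. A segment with almost no saline count enters this test only through its bleomycin counts, so the numbers called describe the tested segments and not the family. At an adjusted p under 0.05 (Benjamini-Hochberg over 20468 genes), 73 of the 108 rose in bleomycin, 67.6%, where 17.5% of all tested genes were called higher and 13.4% lower. They comprised 35 of 52 heavy, 37 of 53 kappa and 1 of 3 lambda segments, and their fitted values rest on batch 1, the only batch with both treatments. None was called lower by edgeR, DESeq2 or limma-voom, and the 2 with a fitted difference below 0, Ighv2-5 and Igkv8-21, had adjusted p = 0.938 and 0.831. The median fitted log2 difference of the tested segments was 4.33, beside 0.03 for all genes tested. With limma-voom 28 of the 108 were called, and with batch 1 libraries alone 48 of 69. Without bleomycin replicate 8, 56 of 110 were called, with a median of 3.56. With it placed in saline, as its title would have it, 1 of 121 was called.

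The expression ranges of batch 1 bleomycin and saline libraries did not overlap for 48 of the 108 tested segments, where 14.0% of all tested genes stood higher without overlap. All 8 bleomycin libraries lay above all 5 saline libraries for 35 of them, where 9.37% of all tested genes did so. Among all 182 segments, 180 had a higher mean in bleomycin than in saline libraries. A segment could pass the count minimum on its bleomycin counts alone, as the 41 with no saline count did. This number therefore describes the chosen segments only, and the same share over all genes was not taken.

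**Figure D5:**
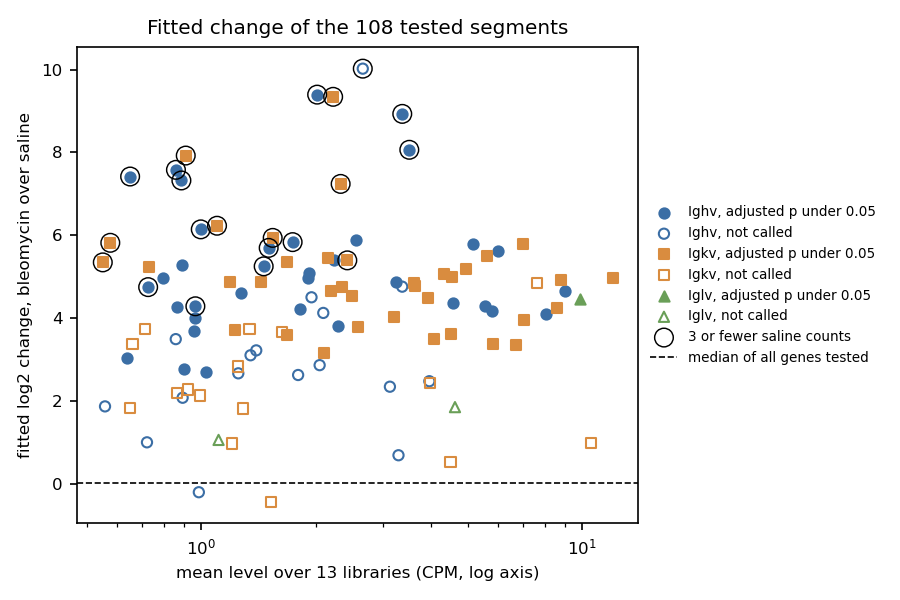
Fitted log2 difference, bleomycin over saline, of the 108 tested segments against their mean level over 13 libraries (CPM, log axis); filled marks passed an adjusted p of 0.05 and ringed marks had 3 or fewer counts in all saline libraries, where the fitted value is not a measured fold. All but 2 marks lie above the median of all genes tested (dashed, 0.03), and Igkv1-110, the second most abundant segment, is among the open marks at 1.00.

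Among the called segments with more than 3 saline counts (53), log2 differences ran from 2.70 (Ighv14-2) to 5.89 (Ighv1-80). Igkv12-46 was at 4.65, 3.06, 10.5 and 12.3 CPM in batch 2 bleomycin and 2.22, 1.42, 6.53 and 14.8 CPM in batch 1 bleomycin, against 0.170, 0.232, 0.219, 0 and 0.294 CPM in saline libraries, without overlap (log2 5.07, SE 0.82, adjusted p = 0.000563 by edgeR). Ighv6-3 was at 1.88 to 27.7 CPM in bleomycin (median 11.2) and 0 to 1.62 CPM in saline libraries (log2 4.67, SE 1.11, adjusted p = 0.00926). Igkv10-96 was at 0.938 to 29.3 CPM in bleomycin (median 14.2) and 0.0852 to 1.09 CPM in saline libraries, and bleomycin replicate 6 lay among the saline values (log2 4.92, SE 1.02, adjusted p = 0.0043). Igkv14-111, Igkv15-103, Igkv8-24, Igkv17-121 and Igkv19-93 rose by log2 3.37 to 5.51, with all 8 bleomycin libraries above saline.

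Segments with 3 or fewer saline counts in all were compared as pooled counts of batch 1. Igkv4-57-1, which had the lowest p of the tested segments (adjusted p = 3.39e-05), was at 2.66, 0.816, 0.845 and 1.17 CPM in batch 2 bleomycin and 2.55, 1.11, 3.03 and 2.03 CPM in batch 1 bleomycin. In saline libraries it had 2 counts, both in replicate 1 (0.0852 CPM), a ratio of 95.4 within batch 1 (95% exact counting interval 26.1 to 793). Ighv5-9-1 had 3 saline counts and a ratio of 46.0 (15.5 to 226), which was 20.8 (6.72 to 104) without bleomycin replicate 6. Igkv12-89 had 2 saline counts and a ratio of 78.6 (21.4 to 654), which was 40.8 (10.9 to 344) without bleomycin replicate 8. Ighv3-8 had 3 saline counts and a ratio of 311 (106 to 1512), which was 26.1 (8.56 to 129.6) without bleomycin replicate 8. With no saline count at all, and 3 counts over the saline group taken as the floor, Ighv8-8 was at least 140-fold higher, Igkv4-70 at least 133-fold, Ighv14-4 at least 100.4-fold and Ighv1-50 at least 40.0-fold higher in batch 1 bleomycin. The bound was 48.5-fold for Ighv8-8 without bleomycin replicate 7, and without bleomycin replicate 8 it was 50.7-fold for Igkv4-70 and 68.0-fold for Ighv14-4. Leaving out libraries from these pooled counts was added after the data were seen.

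Some leaders did not pass the test or passed it narrowly. Igkv1-110 was at 27.7, 21.0, 22.0 and 10.5 CPM in batch 2 bleomycin and 4.16, 1.18, 6.77 and 22.5 CPM in batch 1 bleomycin, against 5.11, 0.232, 1.79, 3.52 and 10.7 CPM in saline libraries. Its groups overlapped (log2 1.00, SE 0.86, adjusted p = 0.418), and the fitted value was -0.13 without bleomycin replicate 8. Igkv3-2 was at 46.1 and 32.3 CPM in bleomycin replicates 4 and 7, at 0.165 to 10.1 CPM in the other 6 and at 0 to 0.597 CPM in saline libraries (log2 4.84, SE 1.68, adjusted p = 0.0513, and 0.0309 to 0.360 with any 1 library left out, under 0.05 without bleomycin replicate 4, 5 or 6). Igkv6-23 and Igkv6-13 were not called either (adjusted p = 0.0883 and 0.0741).

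Some calls depended on single libraries. Igkv4-91 was called (log2 4.97, SE 1.46, adjusted p = 0.0258) and missed 0.05 without bleomycin replicate 6 or 8 or without saline replicate 1, 3, 4 or 5 (adjusted p up to 0.0646). Ighv10-1 (log2 4.10, SE 1.32, adjusted p = 0.0373) and Igkv1-135 (log2 3.38, SE 1.08, adjusted p = 0.0351) kept their call in 6 of 13 such fits, with adjusted p up to 0.112 and 0.0856. Both lost it without bleomycin replicate 7 or 8 or saline replicate 2, 3, 4 or 5, and in addition without bleomycin replicate 6 for Ighv10-1 and replicate 5 for Igkv1-135. Igkv16-104 (log2 5.80, SE 1.74, adjusted p = 0.0282) lost its call without bleomycin replicate 8 (log2 1.98, adjusted p = 0.205) or without saline replicate 1, 2, 4 or 5. Igkv14-126 (log2 3.95, SE 0.90, adjusted p = 0.00642), Ighv1-82 (log2 5.80, SE 1.44, adjusted p = 0.0114) and Igkv1-117 (log2 4.25, SE 1.14, adjusted p = 0.0166) passed in all 13, though without bleomycin replicate 8 the differences of Ighv1-82 and Igkv1-117 were 2.48 and 2.07.

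Between the bleomycin batches no tested segment passed the test in edgeR, where 1.68% of all tested genes did. At an unadjusted p under 0.05 there were 10 of 108 segments, 6 of them higher in batch 2, where 14.6% of all tested genes were under it. DESeq2 called 1 segment, and edgeR called 2 without bleomycin replicate 8 and 1 without bleomycin replicate 5. The lowest adjusted p was 0.113 (Ighv1-74, log2 3.38 higher in batch 2). Batch 2 libraries had less depth throughout, and batch and any difference in the animals or fixation between the sets cannot be told apart.

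Other genes of antibody-making cells were read from lists chosen with earlier results known. Beside each list below, 17.5% of all tested genes were called higher in bleomycin and 13.4% lower. Of 13 tested antibody constant and transport genes, 12 rose in bleomycin, with a list median of log2 4.14 beside 0.03 for all genes. They include the constant regions of IgM (Ighm, 4.14, SE 0.80, adjusted p = 0.00324), kappa (Igkc, 4.14, SE 0.74, adjusted p = 0.00199) and IgA (Igha, 3.41, SE 0.43, adjusted p = 0.000209), and Jchain, which joins IgA and IgM into polymers (3.28, SE 0.40, adjusted p = 0.000147). The IgG constant regions Ighg1, Ighg2b, Ighg2c and Ighg3 rose by 4.19 to 6.55, Iglc1, Iglc2 and Iglc3 of lambda by 2.87 to 4.16, and Ighd of IgD by 1.59. Pigr, which carries IgA across epithelium, was not called (-0.51, SE 0.36, adjusted p = 0.323), and Ighe was too low to test.

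IgD took a smaller share of heavy constant counts in every bleomycin library (0.939 to 6.30%) than in any saline library (9.22 to 20.1%), while shares of IgM, IgA and IgG overlapped. IgA reached 38.9% and 47.7% in bleomycin replicates 2 and 3, and IgG 33.0% and 37.1% in replicates 5 and 8, against 8.81 to 26.7% and 8.06 to 15.6% in saline libraries. As background, IgD is carried by mature B cells that have not become plasma cells.

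Of 12 B cell genes, 10 rose, with a median of log2 1.43, among them Bank1 (1.55, SE 0.23, adjusted p = 0.000167), Pax5 (1.52) and Ms4a1 (1.31). Their summed level was 123 to 284 CPM in batch 2 bleomycin and 143 to 248 CPM in batch 1 bleomycin, against 96.3 to 133 CPM in saline libraries. Of 11 tested plasma cell genes, 6 rose (median 0.89), led by Pou2af1 (2.25, SE 0.29, adjusted p = 3.68e-05), with Tnfrsf13b (1.59), Irf4 (1.15) and Sdc1 (0.45). Sdc1, Xbp1 and Txndc5 are also expressed by epithelium or other secretory cells. Mzb1 (2.28, SE 0.86, adjusted p = 0.057) and Prdm1 (-0.42, adjusted p = 0.104) were not called.

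Of 7 tested genes of lymphoid aggregates, 4 rose (median 1.26): the chemokines Cxcl13 (3.03, SE 0.68, adjusted p = 0.00668), which draws B cells, and Ccl21a (1.35), with the receptor Cxcr5 (1.27) and Ltb (1.16). Of 5 tested germinal centre genes, 2 rose (median 0.05), Gcsam (2.59) and Bcl6 (0.37), while S1pr2 and Mybl1 were at 0.05 and -0.11 and were not called. The median of this list was close to the 0.03 of all genes tested. Among 3 tested genes of V(D)J recombination and B cell precursors, Vpreb3 fell by 2.42 (SE 0.34, adjusted p = 8.89e-05). Vpreb3 was at 1.33 to 4.73 CPM in bleomycin and 9.05 to 16.5 CPM in saline libraries. Rag1 (-2.77, SE 1.43) and Dntt (-2.20, SE 1.33) were not called. Of 9 T cell genes, 4 rose (median 0.91): Trac (2.34), Cd4 (1.93), Cd247 (1.09) and Cd3e (0.86). How far cell number, cell type and RNA per cell each move these lists with the segments was not tested.

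T cell receptor variable segments, built by the same recombination, were scarce in both groups. Only 31 of 165 Trav and Trbv rows passed the same minimum. Their summed level was 4.54 to 5.48 CPM in batch 2 bleomycin and 4.64 to 6.59 CPM in batch 1 bleomycin, against 2.58 to 6.96 CPM in saline libraries, and the groups overlapped. Trbv13-2 (log2 -0.06, SE 0.61, adjusted p = 0.957) and Trbv19 (-0.61, SE 0.87, adjusted p = 0.636) were the 2 with enough counts to be tested, so a change in the others was not detectable at this depth.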

How the data were processed

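Libraries of total RNA from mouse lung sections were made with the SMARTer Pico Input kit, which keeps strand. Per the submitters' processing notes, the tools were cutadapt 4.4, STAR 2.7.10b, featureCounts 2.0.3 and DESeq2 1.42.1, with genome build mm39. Not given in the sources used here are the strand setting, the gene annotation and whether molecular identifiers were used. The authors deposited a table of raw read counts per gene, used for every result, and a table of counts divided by size factors (a normalized signal). The deposited signal gave whole reads for 99.999% of values (within 0.05), and edgeR on those reads called 6319 genes, as on the deposited counts.

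Genes were filtered with filterByExpr, scaled by TMM and fitted with edgeR 4.0.16 (quasi-likelihood, batch and treatment as terms) in R 4.3.3, with Benjamini-Hochberg adjustment over 20468 genes. CPM uses TMM-scaled totals. DESeq2 1.42.0, limma-voom (limma 3.58.1), other scaling and filters, single batches and left-out libraries were alternatives. The fit was tested on simulated counts. Of 38 pairs of libraries within a group, none matched within counting noise (chi-square per degree of freedom 10.1 to 267). Sequences come from GENCODE M21 (GRCm38), not the build of the counts, so no coordinates are given.

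Segments were named if they were among the 10 with the highest mean CPM, the top 3 of any bleomycin library, the 6 called with the lowest p, the 4 called with the largest change, the 4 called for batch with the lowest p, or lambda; from other lists, all constant regions and up to 4 genes per list with the lowest p. The members, lists and rule were chosen with earlier results of these data known. Other segments and genes named here were chosen after their values were seen. Intervals are 95% Wilson or exact.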

Additional observations from a re-analysis of the deposited data

Results flagged for a closer look

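In 11 of 114 groups of 4 or 5 libraries, 1 library stood far from the others of its group. Chance gives about 1 in 20 for normally spread values, a rate that does not hold here. Some segments were named because they led in 1 library, and in some groups all other values were 0. Segment levels were judged on log2(CPM + 0.5). In batch 2 bleomycin, the 5 leading segments took 43.8% in replicate 1, against 21.9 to 24.9% in the other 3 libraries, and Ighv1-82 was at 1.33 CPM in replicate 1, against 2.54 to 2.86 CPM. In batch 1 bleomycin, replicate 5 had Ighv1-49 at 12.5 CPM, against 0 to 0.163 CPM, and Igkv14-126 at 1.15 CPM, against 6.02 to 7.96 CPM.

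Among saline libraries, heavy V counts per heavy constant count were 0.389 in replicate 5, against 0.180 to 0.223 in the other 4. Saline replicate 3 stood apart for Igkv14-126 (0.803 CPM, others 0.147 to 0.251), Igkv16-104 (1.24 CPM, others 0 to 0.126), Igkv6-13 (0.985 CPM, others 0) and Ighv5-9-1 (0.109 CPM, others 0). Saline replicate 1 stood apart for Igkv12-89 and Igkv4-57-1 (0.0852 CPM or 2 counts each, others 0). The Ighv5-9-1 value rests on 3 counts, so the flags of these segments lie at the floor. What sets these libraries apart was not tested.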

How the results depend on the processing

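The 73 called segments became 28 with limma-voom, 48 of 69 tested in batch 1 alone, 25 of 41 tested with the replicate block and 1 with bleomycin replicate 8 placed in saline, and 56 to 86 with each library left out. The block fit (replicates 1 to 5) has no batch term, and its only batch 1 bleomycin library is replicate 5. It therefore largely mixes batch with treatment. Of 108 tested, 72 were called with other scaling, 76 with DESeq2 and 73 with reads recovered from the normalized table. With the batch term dropped 73 of 91 were called. With no filter on low counts 82 of 182 were called, 66 of them among the 73 of the main fit. The cause was not tested. For batch, DESeq2 called 1 segment, and 0 to 2 were called with a library left out. Same-numbered libraries did not deviate together (correlations -0.271 to 0.0518), so the numbers do not pair them.

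The bleomycin median of segments seen (145.5) was 122 at 3 counts or more and 70.3 after thinning. The top-5 share (medians 26.0% in bleomycin and 44.1% in saline) was 7.20% and 23.4% for the leader alone and 40.7% and 57.2% for the top 10. The summed level was 7729 and 615 normalized counts in the deposited normalized table. With each library left out, bleomycin and saline medians were 465 to 566 and 31.9 to 42.2 CPM summed, 144 to 147 and 53 to 73 segments seen, 24.9 to 27.1% and 44.0 to 46.5% for the top 5, and 0.652 to 0.736 and 0.450 to 0.523 for heavy per kappa.

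With bleomycin replicate 8 placed in saline, log2 differences turned negative for Ighv1-82 (-2.55), Ighv3-8 (-3.02), Igkv1-110 (-0.87), Igkv1-117 (-1.45), Igkv16-104 (-3.32), Igkv4-70 (-0.39) and Iglv2 (-0.011). With each library left out, that of Igkv1-110 ran from -0.13 (without bleomycin replicate 8) to 1.63. Few saline segment counts (201 to 1502) limit the saline shares.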
